A study of Mus musculus with 16 samples.

Results

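Double-positive cancer cells, sorted from mouse pancreatic tumours for green and mScarlet fluorescence together, were compared with cells of the same tumour model sorted for mScarlet alone. The comparison holds 4 double-positive (DP) libraries and 4 mScarlet libraries, 8 of the 16 libraries of the study, chosen by their titles, and libraries of the same number (1 to 4) were treated as pairs. The other 8 libraries are cells positive for GFP alone and double-negative (DN) cells. All 4 populations came from orthotopic tumours, grown in the pancreas of host mice from a KPC pancreatic ductal adenocarcinoma line labelled 7TCF-eGFP/Porcn-DMA, which all 4 groups share, and each group had 4 mice. No drug or other treatment is named, and the sources used here do not give the strain, sex or age of the hosts. In the 7TCF-eGFP reporter, green fluorescent protein is under TCF binding sites, so DP and mScarlet cells differ by the gate on WNT-responsive reporter signal. The study names WNT-responsive and WNT-secreting populations, but no label says what drives mScarlet or what the Porcn-DMA construct holds. The labels do not say whether the line is 1 clone.

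In canonical WNT signalling, a secreted and lipid-modified WNT protein binds a Frizzled receptor with an LRP co-receptor, the complex that destroys beta-catenin is held back, and beta-catenin enters the nucleus and binds TCF/LEF factors at target genes such as Axin2. PORCN attaches the lipid and WLS carries the protein to the cell surface. Pancreatic ductal adenocarcinoma grows among many fibroblasts and macrophages, and macrophages also carry a high load of lysosomal enzymes and apolipoprotein E.

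The promoters of a few genes that return below show the letters bound by the factors of these pathways. They were taken from RefSeq promoter windows of GRCm38.p6, which run from 250 bases before to 50 bases after a start of transcription, and 12598 of the 15963 genes tested had one. Capitals mark the match, and the flanks are shown for context. The TCF/LEF letters ATCAAAG (on the other strand CTTTGAT) were sought for the reporter's own factor and are shown in Sp5, a WNT target. The PU.1 letters GAGGAAGT (ACTTCCTC) were sought for the master factor of macrophages and are shown in 2 genes that stood higher in DP. The NF-kB letters, those in capitals in the cytokine gene Il6 with any base at the fifth position, were sought on both strands too.
Sp5, chr2:70474804-70474840, plus strand: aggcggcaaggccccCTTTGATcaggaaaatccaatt
Mmp12, chr9:7344294-7344331, plus strand: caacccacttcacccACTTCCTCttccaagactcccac
C1qc, chr4:136893087-136893124, minus strand: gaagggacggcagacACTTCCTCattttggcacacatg
Il6, chr5:30013055-30013094, plus strand: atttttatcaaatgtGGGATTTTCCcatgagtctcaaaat
The matches begin 104 bases before the start site in Sp5, 88 in Mmp12, 195 in C1qc and 44 in Il6. On either strand, the TCF/LEF letters were in 3.34% of the windows of tested genes, the PU.1 letters in 3.91% and the NF-kB letters in 0.54%. A match is a description of the letters and not of a bound site.

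The DP libraries held 80647185 to 87909931 counts and the mScarlet libraries 80728607 to 92937247, and a count of 3, the limit that a count of 0 allows, was worth 0.0323 to 0.0388 CPM, a gene's count divided by the TMM-scaled size of its library, in these 8 libraries. The gated cells carried the keratins of the ductal epithelium. Over the 8 libraries, Krt19 ran from 8701 to 16846 CPM and Cdh1, which encodes E-cadherin, from 790.2 to 1446 CPM. The epithelial adhesion gene Epcam was near 0 in both gates, with 38 counts in mScarlet and 81 in DP over the 4 libraries of each, and Cldn7 had 55 and 13. The leukocyte gene Ptprc (CD45) was above the detection limit in all 8 libraries, at 0.648 to 9.29 CPM. In bulk libraries, fewer cells of a type and less RNA per cell cannot be told apart.

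Across the transcriptome, no gene passed the threshold. Of 15963 genes tested in all 16 libraries with the library number as a block, edgeR's quasi-likelihood test called 0 higher and 0 lower at a Benjamini-Hochberg adjusted p under 0.05 (0% in each direction), and the lowest adjusted p was 0.118. At an unadjusted p under 0.05 there were 728 genes (4.56% of those tested), of which 509 were higher in DP (3.19%) and 219 lower (1.37%). limma voom called 0 as well, with 905 genes at an unadjusted p under 0.05, and DESeq2 called 195, with 160 higher and 35 lower. The fitted log2 fold changes of the DESeq2 calls ran from -31.37 (Ovgp1) to 34.13 (Pcdhga5). Values near these ends are larger than libraries of this size can measure. Leaving out library number 4 from all groups gave 40 calls, all higher in DP, and leaving out number 1, 2 or 3 gave 0. Leaving out 1 library gave at most 1 call. It was Tnc without DP library 3 (edgeR adjusted p = 0.00256) and Abcg1, a cholesterol exporter, without mScarlet library 4 (edgeR adjusted p = 0.0356). Without GFP libraries 1 and 4, Parvg, a leukocyte adaptor of the integrins, was called (edgeR adjusted p = 0.0343). Abcg1 and Parvg were named after their values were seen. At an unadjusted p under 0.05, 149 higher genes averaged 10 CPM or more in DP, and 151 lower genes averaged 10 CPM or more in mScarlet. Over all abundances, those at an unadjusted p under 0.05 had a median log2 fold change of 2.84 for the higher genes and -0.42 for the lower genes. The median over all genes was -0.01, and 48.7% lay above 0. All log2 fold changes below are DP minus mScarlet from this edgeR fit, with the standard error (SE), unless another fit is named, and values per library are TMM-scaled CPM.

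Among abundant genes, differences over 2-fold were in 1 direction. Of 2092 genes with a mean of at least 100 CPM in DP or mScarlet, 16 were over 2-fold higher in DP and 0 over 2-fold lower (percent of these genes 0.765 and 0). Those 16 genes were Mmp12, Apoe, C1qc, Lyz2, C1qa, C1qb, Csf1r, Ctss, Ccl6, Arg1, Laptm5, Hba-a1, Cd68, Gm2a, Hmox1 and Ctsc. They include the 3 chains of complement C1q, the macrophage growth factor receptor Csf1r, lysosomal proteins, and a globin. At a mean of at least 10 CPM, 136 of 8200 genes were over 2-fold higher and 20 over 2-fold lower. In the plot of difference against abundance, the macrophage markers run from 0.18 to 5.05 on the log2 scale and the acinar markers from -2.88 to 1.41.

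**Figure D1:**
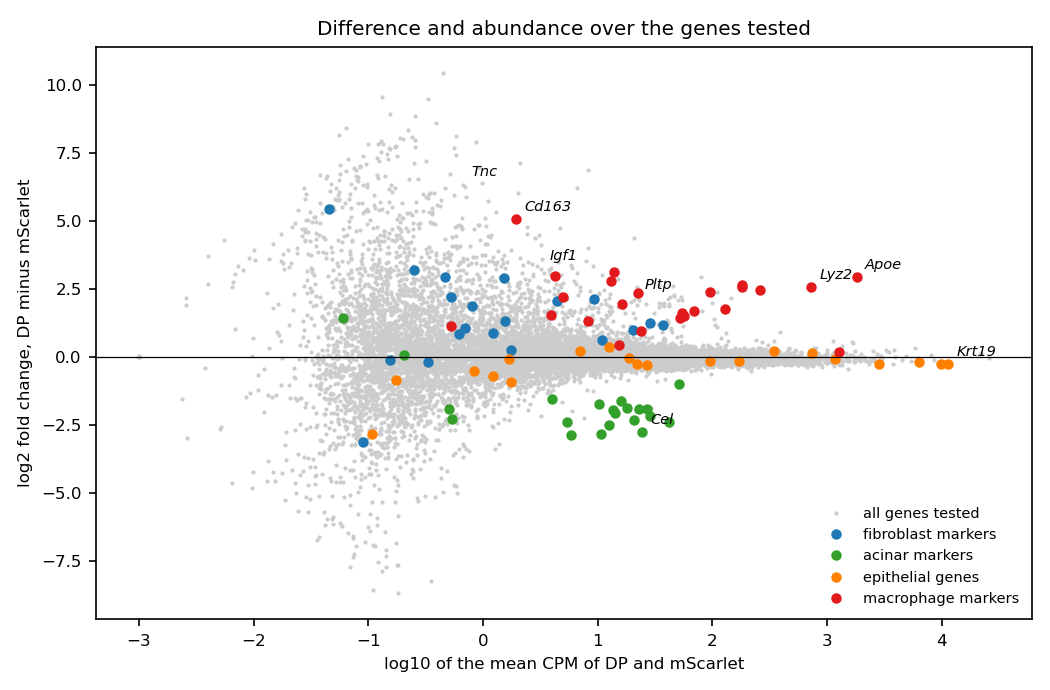
Each point is a gene tested, with the log10 of its mean CPM over DP and mScarlet on the x axis and the log2 fold change (DP minus mScarlet) on the y axis; coloured points are 4 gene lists. All 24 macrophage markers lie above 0, 19 of 21 acinar markers below it, and the abundant epithelial genes close to 0.

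When the 8 libraries of the comparison were fitted alone with the block, 79 of 14119 genes were called higher (0.56%) and 0 lower. This fit has 3 residual degrees of freedom, against 9 with all 16 libraries, and it takes the spread from DP and mScarlet only. Without the block it called 0, with 520 genes at an unadjusted p under 0.05. DESeq2 called 508 genes and limma voom 262 in the same libraries with the block, and each of these sets held all 79. The count of calls changed when a number was left out, which also leaves fewer libraries in the fit, and these 2 effects cannot be told apart here. Leaving out library number 1, 2 or 3 left 24, 27 and 39 calls, of which 23, 27 and 32 were among the 79, and leaving out number 4 gave 92, of which 65 were. The log2 fold changes of the 79 genes in this fit ran from 0.61 to 7.38, with a median of 2.25. In the 16-library fit their median was 2.09, 70 had an unadjusted p under 0.05 and none an adjusted p under the threshold. Of the 79 genes, 18 belong to the lists of macrophage or leukocyte markers, and 53 belong to no list used here. Of the 60 of them with a promoter window, 7 held the PU.1 letters (11.7%, against 3.91% of all windows). The TCF/LEF letters were in 3 (5.0%, against 3.34%) and the NF-kB letters in 0 (against 0.54%). Of 17 macrophage markers with a window, 1 held the PU.1 letters (5.88%). These shares were not tested.

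The WNT genes are given first, because the 2 gates differ by a WNT reporter. Porcn (Entrez 53627, X chromosome, 8193846 to 8206548 in GRCm38.p6), the acyltransferase that lipidates WNT proteins, was lower in DP within each of the 4 numbers. It was at 76, 64.3, 65.5 and 40 CPM in mScarlet libraries 1 to 4 and at 51.4, 45.6, 47.9 and 33.4 in DP libraries 1 to 4. The groups overlapped, since mScarlet library 4 lay under 3 of the 4 DP libraries. The difference did not pass (log2 fold change -0.46, SE 0.20, 95% interval -0.89 to -0.02, edgeR adjusted p = 1). Reads of the endogenous gene and of any Porcn sequence in the construct cannot be told apart in counts per gene. Wls, the WNT carrier, was at 78.9 ± 17.5 CPM in mScarlet and 90.4 ± 21.3 in DP (SD, n = 4), with a 95% interval of the log2 difference from -0.23 to 0.63.

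Feedback targets of beta-catenin were near the limit of detection in both gates. Axin2, the scaffold of the destruction complex and a common readout of the pathway, had 0, 0, 0 and 2 counts in mScarlet libraries 1 to 4 and 39, 0, 0 and 45 in DP libraries 1 to 4. DP libraries 2 and 3 were thus at the level of the mScarlet libraries, and only DP libraries 1 and 4 stood above it. Sp5, whose TCF/LEF letters are printed above, had 2 counts in DP library 1 and 0 elsewhere. Notum, a secreted WNT deacylase, had 62 counts in mScarlet, all in library 3, and 9 in DP. Lef1, a TCF family factor, had 110 counts in mScarlet and 11 in DP. Nkd1, an inhibitor of Dishevelled, had 83 and 188. Rnf43, which removes Frizzled receptors from the membrane, was better covered and higher in 2 numbers and lower in 2 (9.76 ± 4.28 CPM in mScarlet, 12 ± 6.41 in DP, edgeR adjusted p = 1).

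Of 30 WNT/beta-catenin target genes listed, 23 passed the filter on low counts. A total of 15 lay above 0, with a median log2 fold change of 0.10 against -0.01 for all genes. None was higher in DP within all 4 numbers (8.85% of all genes were), and 2 were lower within all 4 (8.33% of all genes). The mean log2(CPM + 1) over the target list was 2.27 ± 0.06 in mScarlet and 2.31 ± 0.08 in DP (SD, n = 4), higher in DP in 3 of 4 numbers, and these ranges overlapped. Ccnd1, the cyclin D1 gene, was at 88.5 ± 7.03 and 76.5 ± 13.8 CPM (95% interval of the log2 difference -0.62 to 0.20), and Myc at 107 ± 26.1 and 96.8 ± 31.8 (-0.46 to 0.09). Apcdd1, a membrane WNT inhibitor that is itself a target, was lower in 3 of 4 numbers (2.12 ± 0.758 and 0.89 ± 0.601 CPM, log2 fold change -1.37, edgeR adjusted p = 0.95).

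Of 19 WNT ligand genes, 12 were tested and 9 lay above 0. Their median of 0.55 was 0.25 without the block, and 0.20, 0.24 and 0.17 without number 1, 3 or 4. In the 8-library fit the median was 0.01, but only 6 ligands passed its filter, so the members differ as well as the fit. The ligands with the most counts lay below 0, within the spread of the libraries. Within pairs their direction was mixed, since DP was higher in 3 of 4 numbers for Wnt4, in 2 for Wnt7b and in 0 for Wnt10a. Wnt7b was at 297 ± 32.2 CPM in mScarlet and 278 ± 50.6 in DP (95% interval of the log2 difference -0.46 to 0.22), Wnt4 at 93.5 ± 19.5 and 86.6 ± 5.92, and Wnt10a at 73 ± 19.8 and 67.1 ± 21.8. Wnt7a was higher in DP within all 4 numbers (14.9 ± 10.6 and 19.7 ± 14.8 CPM, log2 fold change 0.43, SE 0.51), though the libraries of a group ranged over more than that. Among receptors, 11 of 16 lay above 0 (median 0.11). The receptor Fzd7 was at 7.01 ± 2.09 and 11.8 ± 5.14 CPM, and Lgr6, an R-spondin receptor, was lower in all 4 numbers (5.25 ± 4.47 and 2.32 ± 0.8). Dkk3, a secreted protein of the Dickkopf family, was at 0.269, 0, 0 and 0 CPM in mScarlet libraries 1 to 4 and at 1.59, 0.752, 1.86 and 2.96 in DP libraries 1 to 4. The 2 groups of Dkk3 values did not overlap (1.75% of all genes lay higher without overlap), and its edgeR adjusted p was 0.818. It was called with 1 of the alternative settings (lowest adjusted p 0.00559).

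Macrophage genes had the highest median of the lists. All 24 macrophage and monocyte markers were tested and all lay above 0, with a median log2 fold change of 2.07. Within all 4 numbers, 21 of the 24 were higher in DP, against 8.85% of all genes, and for 7 of the 24 the 4 DP libraries lay above the 4 mScarlet libraries (1.75% of all genes). The 16-library fit called none of the 24, and the 8-library fit called 15 of the 22 tested there (0.56% of all genes). The mean log2(CPM + 1) over the list was 4.22, 3.17, 2.94 and 4.92 in mScarlet libraries 1 to 4 and 6.73, 5.13, 4.94 and 6.05 in DP libraries 1 to 4. DP was higher in 4 of 4 numbers, by 2.51, 1.96, 2.00 and 1.13, and every DP library lay above every mScarlet library. The summed level of the list ran from 1428 to 3985 CPM in mScarlet and from 3474 to 12250 CPM in DP, and no marker was at 0 throughout a group.

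Apoe, the lipid carrier of macrophages, was at 293, 150, 79.8 and 1343 CPM in mScarlet libraries 1 to 4 and at 4863, 1796, 990.4 and 5035 in DP libraries 1 to 4. Each DP library was far above its partner, while mScarlet library 4 lay above DP library 3. The log2 fold change was 2.94 (SE 0.78, edgeR adjusted p = 0.775 with 16 libraries and 0.00458 with 8). Csf1r, the receptor for macrophage colony-stimulating factor, was at 50.9, 8.49, 8.97 and 44.9 CPM in mScarlet and 363, 69.4, 87.5 and 134 in DP, with no overlap (log2 fold change 2.39 with SE 0.87, edgeR adjusted p = 1 and 0.00458). C1qc, whose promoter letters are printed above, was at 46, 19.8, 11.1 and 122 CPM in mScarlet and 524, 186, 138 and 406 in DP. Its values also did not overlap (log2 fold change 2.63 with SE 0.96, edgeR adjusted p = 1 and 0.00458).

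Other markers gave like values. Lyz2, the macrophage lysozyme, was at 172 ± 124 CPM in mScarlet and 1289 ± 1169 in DP (log2 fold change 2.57), Trem2, a lipid-sensing receptor, at 3.62 ± 4.21 and 23.9 ± 14.3 (3.13), and Cd68, a lysosomal glycoprotein, at 30.1 ± 13.9 and 108 ± 55.8 (1.68), all SD with n = 4. Lyz1 and Lyz2 are near-identical neighbours, so the values of Lyz1 (7.31 ± 5.11 and 61.4 ± 58.9 CPM) are uncertain as those of a single gene. Arg1, the arginine-degrading enzyme of activated macrophages, was at 40.1 ± 51.3 and 158 ± 147 CPM. Mmp12, the macrophage elastase, was at 2.45, 6.49, 2.05 and 77.9 CPM in mScarlet libraries 1 to 4 and at 131, 45.5, 27.4 and 344 in DP, so that 1 mScarlet library lay among the DP libraries.

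**Figure D2:**
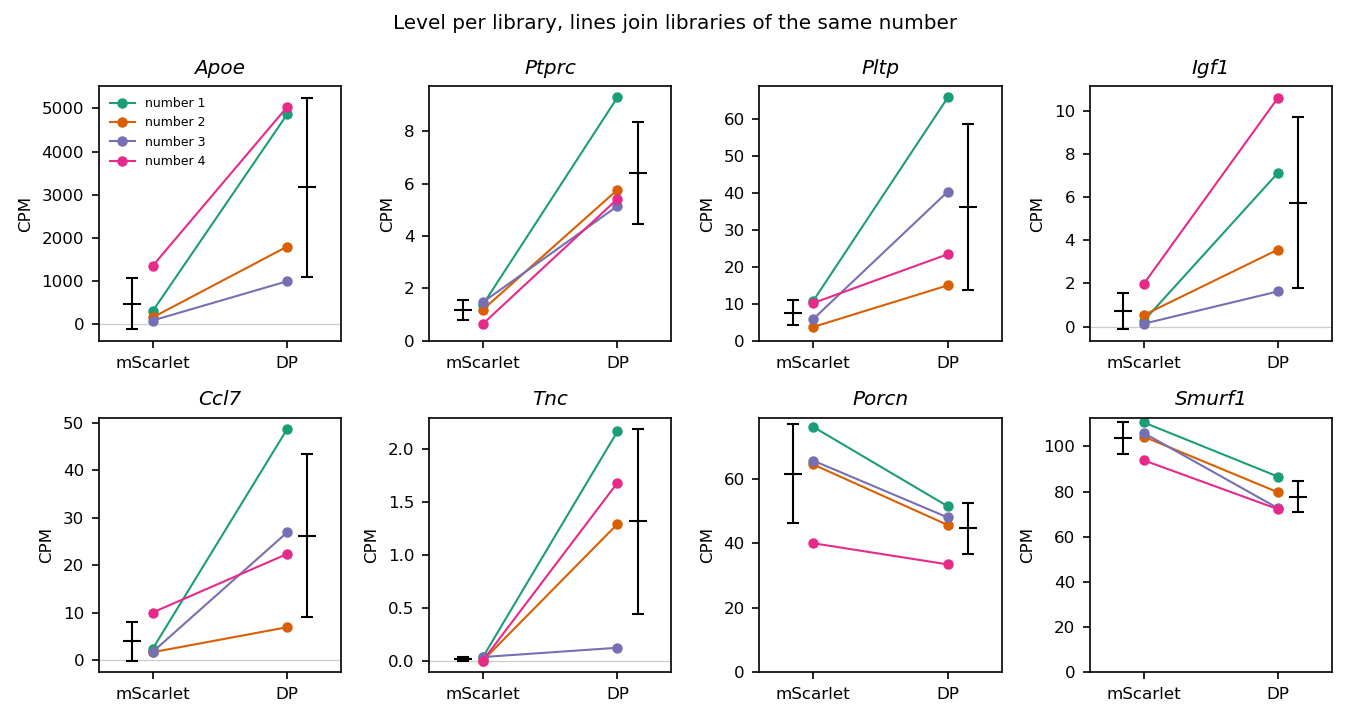
TMM-scaled CPM (y axis) of 8 genes in the mScarlet and DP libraries (x axis), with a line joining each pair of the same number and black bars for the mean ± SD (n = 4). Apoe, Ptprc, Pltp, Igf1, Ccl7 and Tnc are higher in DP within all 4 numbers, and Porcn and Smurf1 lower within all 4.

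Genes shared by all leukocytes lay in the same direction. Of 14 pan-leukocyte genes all 14 lay above 0 (median 1.08), 11 were higher within all 4 numbers (8.85% of all genes), and the 8-library fit called 4 (0.56% of all genes). Ptprc (CD45) was at 1.38, 1.19, 1.47 and 0.648 CPM in mScarlet libraries 1 to 4 and at 9.29, 5.77, 5.14 and 5.42 in DP. The groups did not overlap (log2 fold change 2.44 with SE 0.81, edgeR adjusted p = 0.927, and 0.0289 with 8 libraries). Markers of other leukocytes were counted as well. Of 12 neutrophil markers 5 lay above 0 (median -0.06), of 16 T, NK and B lymphocyte markers 5 (median -0.43), and of 8 dendritic cell markers 4 (median 0.00). The dendritic score was higher in DP within all 4 numbers, by 0.25, 0.17, 0.05 and 0.26. Summed lymphocyte markers reached at most 25.4 CPM in mScarlet and 34 CPM in DP. The differences between these lists were not tested.

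Lysosomal genes lay in the same direction with smaller differences. Of 20 genes for lysosomal enzymes and membrane proteins 16 lay above 0 (median 0.29), 12 were higher within all 4 numbers (8.85% of all genes), 0 were lower within all 4 (8.33%), and 6 lay higher without overlap (1.75%). Psap, the precursor of the saposins, was at 1023, 942, 829.8 and 749.8 CPM in mScarlet libraries 1 to 4 and at 1892, 1249.9, 1079 and 1229 in DP. Every DP library of Psap lay above every mScarlet library (log2 fold change 0.58 with SE 0.23, edgeR adjusted p = 1, and 0.0488 with 8 libraries). Ctss, a cathepsin of antigen-presenting cells, had a larger difference (34.4 ± 36.9 and 188 ± 131 CPM, log2 fold change 2.38). Gm2a, the GM2 ganglioside activator, was at 53.7 ± 26.4 and 154 ± 83.6 CPM. The macrophage markers given above were higher in the same libraries, and their part in these differences was not tested.

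MHC class II genes, which serve antigen presentation to helper T cells, lay 8 of 8 above 0 with a median of 0.32. Of these, 5 were higher within all 4 numbers (8.85% of all genes). Cd74, the invariant chain, was at 5198 ± 1110.4 CPM in mScarlet and 6534 ± 1388 in DP, with a 95% interval of the log2 difference from -0.16 to 0.82. H2-Ab1 was at 1163 ± 294 and 1527 ± 382 CPM (-0.19 to 0.98). MHC class I genes lay 3 of 14 above 0 (median -0.06), and 6 were lower within all 4 numbers (8.33% of all genes). H2-K1 was slightly lower in all 4 numbers (5753 ± 490.2 and 5159.8 ± 399.98 CPM), while H2-Q6, a gene with near-identical neighbours, was higher in all 4 (1.09 ± 1.12 and 4.47 ± 4.15 CPM). None of these passed the test.

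Several of the lowest p-values belonged to secreted proteins. Pltp (Entrez 18830, chromosome 2, 164839518 to 164857708 in GRCm38.p6), the phospholipid transfer protein, had the lowest p of all genes (1.43e-05). It was at 10.8, 3.77, 5.89 and 10.2 CPM in mScarlet libraries 1 to 4 and at 65.7, 15, 40.3 and 23.4 in DP, with no overlap. Its log2 fold change was 2.19 (SE 0.32, 95% interval 1.5 to 2.89, edgeR adjusted p = 0.118, and 0.0115 with 8 libraries). Pltp overlaps Ctsa over 1515 bases, and reads of this stretch could count for either gene. Igf1 (Entrez 16000, chromosome 10, 87858265 to 87937047), an insulin-like growth factor made by stromal cells and macrophages, was at 0.259, 0.531, 0.133 and 1.97 CPM in mScarlet and 7.13, 3.57, 1.63 and 10.6 in DP. Within each number Igf1 was higher in DP, and mScarlet library 4 lay above DP library 3 (log2 fold change 3.25 with SE 0.48, edgeR adjusted p = 0.118, and 0.0315 with 8 libraries).

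Tnc (Entrez 21923, chromosome 4, 63959785 to 64047015), which encodes the matrix glycoprotein tenascin C, had the largest log2 fold change of the genes named by the selection rule for low p or as fixed genes. It had 3, 0, 3 and 0 counts in mScarlet libraries 1 to 4 and 200, 103, 10 and 149 in DP. The mScarlet libraries were thus at or under the limit that a count of 0 allows, and DP library 3 was only a little above it. The log2 fold change was 6.33 (SE 0.97, 95% interval 4.22 to 8.44, edgeR adjusted p = 0.118, and 0.238 with 8 libraries), and without DP library 3 the adjusted p was 0.00256. The mean level of Tnc was 1.32 CPM in DP, 3.99 in DN and 12.4 in GFP.

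Fibroblast markers were counted next. Of 20 fibroblast and pericyte markers 17 lay above 0 (median 1.21), and 7 were higher within all 4 numbers (8.85% of all genes). The 8-library fit called 1 of the 17 tested there (0.56% of all genes). Their summed level ran from 27.5 to 102 CPM in mScarlet and from 57.7 to 333 CPM in DP, and 1 marker was at 0 throughout mScarlet. The list score was higher in DP within all 4 numbers, by 0.46, 0.95, 0.02 and 1.29, so number 3 showed almost no difference. Dcn (decorin) was at 2.09, 0.117, 1.06 and 3.38 CPM in mScarlet libraries 1 to 4 and at 7.38, 3.92, 1.65 and 15.5 in DP. Col1a1 was at 15.3 ± 8.68 and 41.7 ± 31.7 CPM and was lower in DP in number 3. Saa3, an acute-phase protein of fibroblasts and macrophages, was at 3.81 ± 3.14 and 15 ± 7.85 CPM (a log2 difference of 2.14, edgeR adjusted p = 0.78, and 0.0304 with 8 libraries). Pi16, a marker of adventitial fibroblasts, was at 0.476 ± 0.524 and 2.57 ± 2.07 CPM.

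Proteinases of the matrix and their inhibitors lay 12 of 14 above 0 (median 0.37), 5 of them higher within all 4 numbers (8.85% of all genes). Mmp2, gelatinase A of stromal cells, was at 2.85, 1.77, 1.55 and 6.48 CPM in mScarlet libraries 1 to 4 and at 18.8, 11.3, 6.32 and 18.9 in DP (log2 fold change 2.43 with SE 0.62, edgeR adjusted p = 0.775, and 0.0115 with 8 libraries). Timp3, an inhibitor of metalloproteinases, was at 0.267 ± 0.285 and 2.44 ± 0.945 CPM with no overlap (log2 fold change 3.88, edgeR adjusted p = 0.322). Timp3 lies within the span of Syn3. Whether their exons overlap was not examined, and without a stated strand any shared reads could count for either gene. Loxl1, which cross-links elastin, was at 0.571 ± 0.415 and 2.26 ± 1.88 CPM. Olfml3, a secreted olfactomedin-domain protein, was at 1.63, 0.699, 0 and 6.66 CPM in mScarlet and 14.2, 11, 5.42 and 24.1 in DP (log2 fold change 3.52, SE 0.65, edgeR adjusted p = 0.272). Collagen chains lay 9 of 16 above 0 (median 0.02), and genes of the epithelial-mesenchymal transition 16 of 21 (median 0.31).

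Inflammatory genes were counted in the same way. Of 25 NF-kB and inflammatory genes 17 lay above 0 with a median of 0.10. Within all 4 numbers, 6 were higher (8.85% of all genes) and 0 lower (8.33%). Ccl7, a monocyte-attracting chemokine, was at 2.39, 1.72, 1.76 and 10.1 CPM in mScarlet libraries 1 to 4 and at 48.7, 6.99, 27 and 22.4 in DP. DP library 2 lay under mScarlet library 4 (log2 fold change 2.87 with SE 0.51, edgeR adjusted p = 0.269, and 0.075 with 8 libraries). Its neighbour Ccl2 was at 6.52 ± 7.92 and 18.4 ± 11.5 CPM. Il6 (Entrez 16193, chromosome 5, 30013114 to 30019975), the cytokine gene with the NF-kB letters printed above, was at 1.21, 0.246, 0.177 and 0.582 CPM in mScarlet and 2.99, 1.07, 0.835 and 2.59 in DP. Within each number Il6 was higher in DP, and the lowest 2 DP libraries lay under mScarlet library 1 (log2 fold change 1.95, SE 0.39, edgeR adjusted p = 0.277). Cxcl14, a chemokine of fibroblasts and epithelium, was at 0.591 ± 0.954 and 5.83 ± 6.31 CPM (a log2 difference of 4.12 with SE 0.74, edgeR adjusted p = 0.269). Of 21 TGF-beta pathway genes 13 lay above 0 and 8 below, with a median of 0.08. Within all 4 numbers, 4 were higher (8.85% of all genes) and 1 lower (8.33%). Among them, the receptor Tgfbr1 was at 2.19 ± 0.447 and 6.07 ± 1.89 CPM with no overlap. Tgfbi, a matrix protein that macrophages make, was at 15.3 ± 10.1 and 53.4 ± 29.8 (edgeR adjusted p = 1, and 0.00199 with 8 libraries).

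Markers of further cell types were read in the same libraries. Pancreatic acinar markers went the other way, with 19 of 21 below 0, a median of -1.96 and 11 lower within all 4 numbers, against 8.33% of all genes. The acinar score differed by -3.11 in number 1 and by -0.33, -0.41 and -0.24 in numbers 2 to 4, and without number 1 the median of the list was -0.64. Cel, an acinar lipase, was at 141, 23.5, 4.56 and 2.87 CPM in mScarlet libraries 1 to 4 and at 3.77, 14.6, 1.56 and 2.73 in DP. Erythroid markers lay 4 of 5 above 0 (median 1.71). The globin gene Hba-a1, which shares sequence with a second copy, was at 135, 0.311, 41.5 and 0.154 CPM in mScarlet and 412, 13.1, 43 and 0.0338 in DP, with the high libraries in numbers 1 and 3 of both groups. Endothelial markers lay 8 of 13 above 0, with a median of 0.96 that was 0.50 without number 1. In the 8-library fit, which tested 10 of these markers, the median was -0.06. Their summed level was 14.2 to 21.7 CPM in mScarlet and 15.7 to 24.7 in DP, and Vwf, the von Willebrand factor gene, was at 0.282 ± 0.191 and 2.13 ± 1.42 CPM with no overlap. Lpl, lipoprotein lipase of adipocytes and macrophages, was at 1.26, 0.0259, 0.942 and 3.4 CPM in mScarlet and 16.7, 6.91, 3.49 and 14.5 in DP, also with no overlap (log2 fold change 3.38, SE 0.68, edgeR adjusted p = 0.284). Islet hormones and Schwann cell genes showed no common direction, with 1 of 4 and 2 of 6 above 0.

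**Figure D3:**
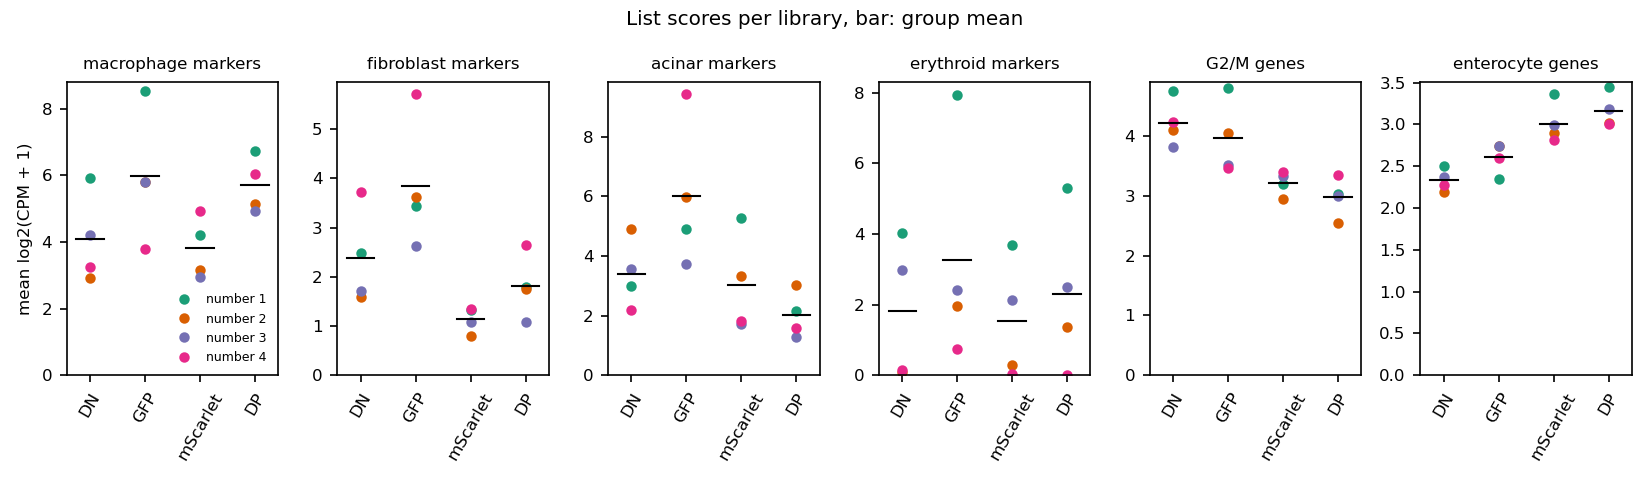
The mean log2(CPM + 1) over 6 gene lists (y axis) in each library of the 4 groups (x axis), coloured by library number, with a bar at the group mean. The macrophage score of every DP library (4.94 to 6.73) lies above every mScarlet library (2.94 to 4.92), while the acinar score of mScarlet library 1 (5.27) stands above the other 7 mScarlet and DP libraries.

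A few genes of tissue-resident macrophages were chosen after their values were seen, because they combined a low p with a single high library. Cd209b, a lectin of marginal-zone macrophages, was at 0.0108, 0, 0.0665 and 0 CPM in mScarlet libraries 1 to 4 and at 13.3, 0.852, 2.44 and 0.0677 in DP (edgeR adjusted p = 0.17). Timd4, a receptor for dying cells, was at 0.0929 ± 0.0715 and 4.79 ± 6.85 CPM, and Slco2b1, an organic anion transporter, at 0.0551 ± 0.0467 and 4.00 ± 4.45. Spic, the factor of iron-recycling macrophages, had 2 counts in mScarlet and 633 in DP. For each of these 4 genes DP library 1 was the highest of the 8, and DP library 1 was also highest for the globin genes Hba-a1 and Hbb-bt (184 CPM).

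Proliferation genes lay slightly lower in DP. Of 22 mitosis and G2/M genes 3 lay above 0 (median -0.28) and 7 were lower within all 4 numbers, and of 24 DNA replication genes 3 lay above 0 (median -0.23) and 8 were lower within all 4. The background for lower within all 4 numbers is 8.33% of genes. Aurkb, the mitotic Aurora B kinase, was at 15.2 ± 3.46 CPM in mScarlet and 11.2 ± 2.65 in DP. Mcm5, a subunit of the replicative helicase, was at 75.9, 94.8, 106 and 88.8 CPM in mScarlet libraries 1 to 4 and at 63.5, 65.9, 83.8 and 55.3 in DP (log2 fold change -0.47, SE 0.21, edgeR adjusted p = 1). Uhrf1, which keeps DNA methylation through replication, was at 40.7 ± 5.03 and 29.6 ± 5.8 CPM. No gene of the 2 lists passed the test.

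Lists of epithelial identity had small median differences, and none of their genes passed the threshold. Single genes differed more, from -2.83 to 0.37 in the epithelial list. The range was -0.88 to 2.66 for classical PDAC genes and -0.62 to 7.47 for enterocyte genes. Of 20 epithelial adhesion and keratin genes 4 lay above 0 (median -0.21), and 4 were lower within all 4 numbers (8.33% of all genes). Krt8 was at 10618 ± 1753 CPM in mScarlet and 8971 ± 955 in DP (95% interval of the log2 difference -0.62 to 0.13), and Krt19 at 12522 ± 3348 and 10298 ± 1366 (-0.70 to 0.15). Genes of the classical PDAC and gastric type lay 11 of 24 above 0 (median -0.03). Tff2, a gastric trefoil peptide, was at 1287 ± 550.1 and 1023 ± 298 CPM (-0.93 to 0.29). Intestinal enterocyte genes lay 13 of 20 above 0 (median 0.16), and Clca1, a goblet cell gene, was higher in all 4 numbers by a small margin (22.8 ± 16.1 and 32.7 ± 20.4 CPM, log2 fold change 0.59, SE 0.46). RAS-ERK output genes lay 4 of 17 above 0 (median -0.09), cholesterol and fatty acid synthesis genes 7 of 22 (median -0.05), and glycolysis and hypoxia genes 9 of 22 (median -0.03). Fasn, fatty acid synthase, was at 219 ± 61.5 and 173 ± 46.8 CPM. Immediate-early transcription factors lay 14 of 18 above 0 (median 0.15). Among them Klf2 was at 37.2 ± 19.3 and 60.3 ± 29.5 CPM (edgeR adjusted p = 1, and 0.0436 with 8 libraries). Of the heat shock genes, 8 of 14 above 0, Hspa1a was at 24.5 ± 4.47 and 48.6 ± 15.6 CPM, and its reads may be exchanged with those of its near-copy Hspa1b.

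**Figure D4:**
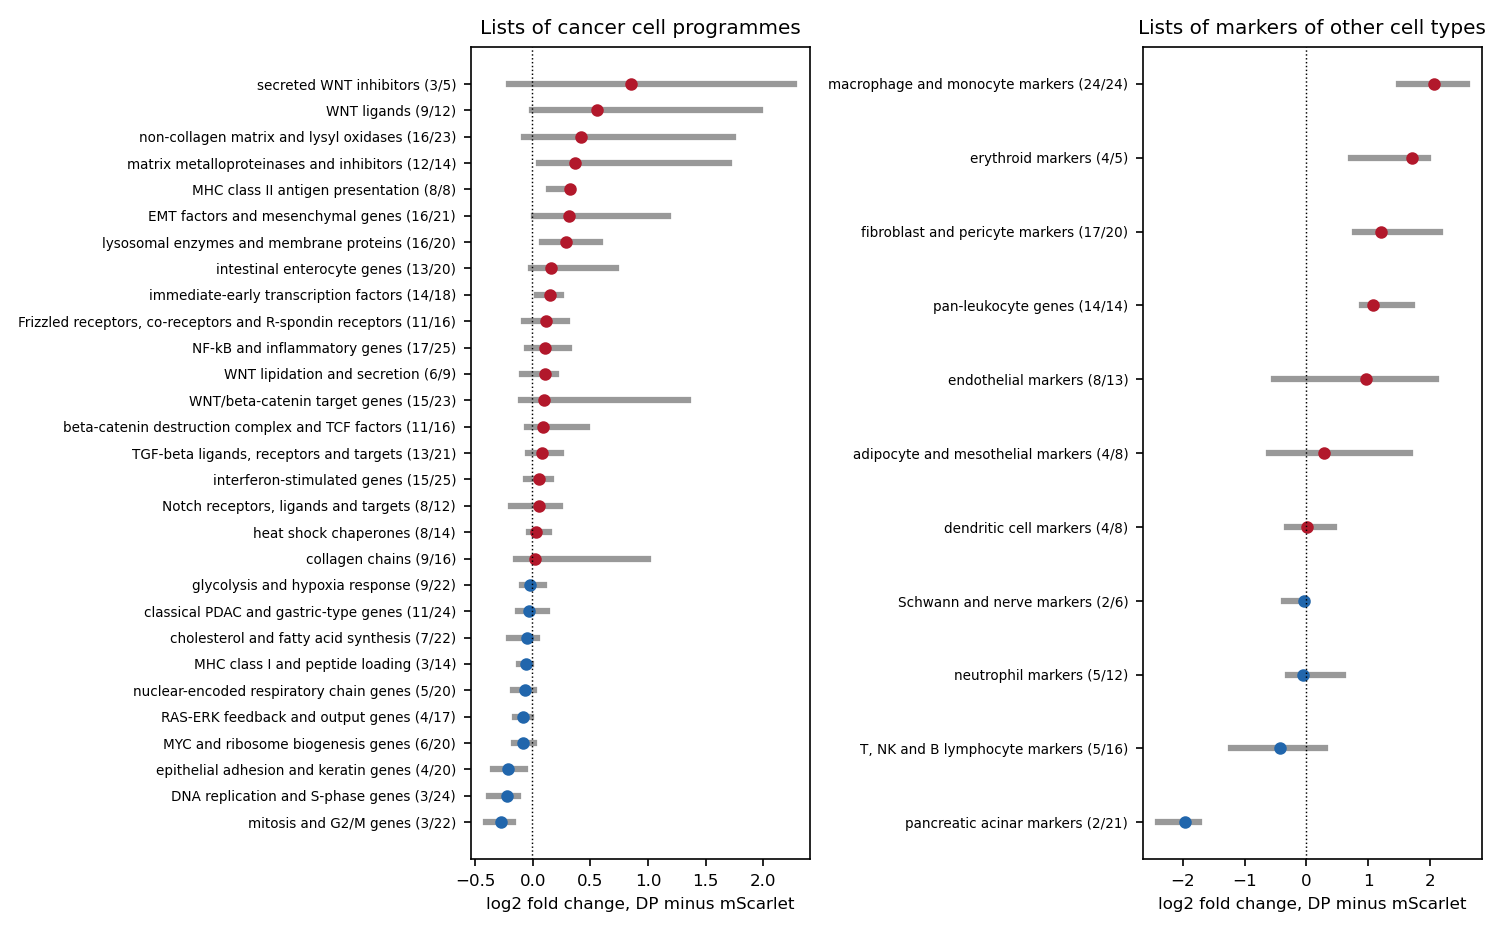
Median log2 fold change, DP minus mScarlet (x axis), of each gene list with at least 5 genes tested (y axis), with a grey bar over the middle 50% of its genes, and in brackets the genes above 0 of those tested. The dotted line is the median of all genes (-0.01); macrophage markers are highest at 2.07 and acinar markers lowest at -1.96.

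The genes with the lowest p among those lower in DP had small differences. Smurf1, a ubiquitin ligase that acts on BMP and TGF-beta signalling, was at 111, 104, 106 and 93.9 CPM in mScarlet libraries 1 to 4 and at 86.6, 79.7, 72.6 and 72.2 in DP. The groups did not overlap (0.852% of all genes lay lower without overlap), and the log2 fold change was -0.41 (SE 0.11, 95% interval -0.64 to -0.19, edgeR adjusted p = 0.775). Coq8b, a gene of coenzyme Q synthesis, was at 85 ± 4.11 and 66.4 ± 7.48 CPM, also with no overlap. Map6, which stabilises microtubules, was at 38.5 ± 8.42 and 26.3 ± 3.76 CPM, and the kinase gene Sbk1 at 43 ± 6.17 and 32.1 ± 4.57. These 4 genes were lower in DP within all 4 numbers, and none passed.

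The same reporter gate can be read in cells without mScarlet, from 8 other libraries. GFP against DN had 10 genes called higher (0.0626%) and 1 lower (0.00626%) by the same edgeR fit. Pltp (log2 fold change GFP minus DN 3.50, edgeR adjusted p = 0.0023), Igf1 (3.34), Ccl7 (3.54), Il6 (2.48), Slco2b1 (7.31) and Hspa1a (2.37) were among the called genes. Their values in DP minus mScarlet were 2.19, 3.25, 2.87, 1.95, 6.04 and 0.93. Pltp, Igf1 and Ccl7 were named for a low p and a higher level in DP, and Slco2b1 after its values were seen. The direction of these genes in DP minus mScarlet was thus set by the choice. The other called genes are not given here. All 79 genes called in the 8-library fit lay above 0 in GFP minus DN, with a median of 2.38, whereas 7734 of the 15963 genes did. For the macrophage markers the median was 2.50 in GFP minus DN and 2.07 in DP minus mScarlet, and for fibroblast markers 2.06 and 1.21. Acinar markers were above 0 in all 21 cases in GFP minus DN (median 3.59) and at a median of -1.96 in DP minus mScarlet. Their score was 4.92, 5.96, 3.74 and 9.44 in GFP libraries 1 to 4 and 2.99, 4.89, 3.56 and 2.18 in DN, so that GFP library 4 stood far above the rest. The test of the difference between the 2 contrasts (interaction) called 0 genes with edgeR, with 771 at an unadjusted p under 0.05 (4.83%) and a lowest adjusted p of 0.968. limma voom also called 0, and DESeq2 called 60.

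The macrophage score was then added to the edgeR fit as a covariate, which is circular for the genes of that list. It called 0 genes, with 1100 at an unadjusted p under 0.05 (6.89%). The 79 genes had a median of 0.39 in that fit, against 2.09 without the score, and 51 of them remained above 0. Of the 79, 15 belong to the macrophage list itself, and for these the drop is circular. The score was also higher in every DP library (4.94 to 6.73) than in every mScarlet library (2.94 to 4.92), so it can take up part of the group difference. For Csf1r the log2 fold change was 0.04 and for Arg1 -0.99. Among the genes of secreted proteins the value was 2.20 for Pltp, 3.02 for Igf1, 2.86 for Ccl7, 6.27 for Tnc, 2.36 for Il6 and 3.28 for Mmp2. It was 3.53 for Cxcl14, 3.41 for Olfml3 and 1.60 for Saa3 (4.12, 3.52 and 2.14 without the score). It was 1.35 for Apoe, 0.58 for Lyz1, 0.39 for Mmp12 and -0.30 for Tgfbi (2.94, 2.66, 2.96 and 1.83 without the score). The fibroblast markers had a median of 2.18 with the score and 1.21 without it, and the lysosomal genes -0.05 and 0.29. Mitosis genes moved from -0.28 to -0.78, and acinar markers from -1.96 to 1.29. Porcn moved from -0.46 to -0.08.

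**Figure D5:**
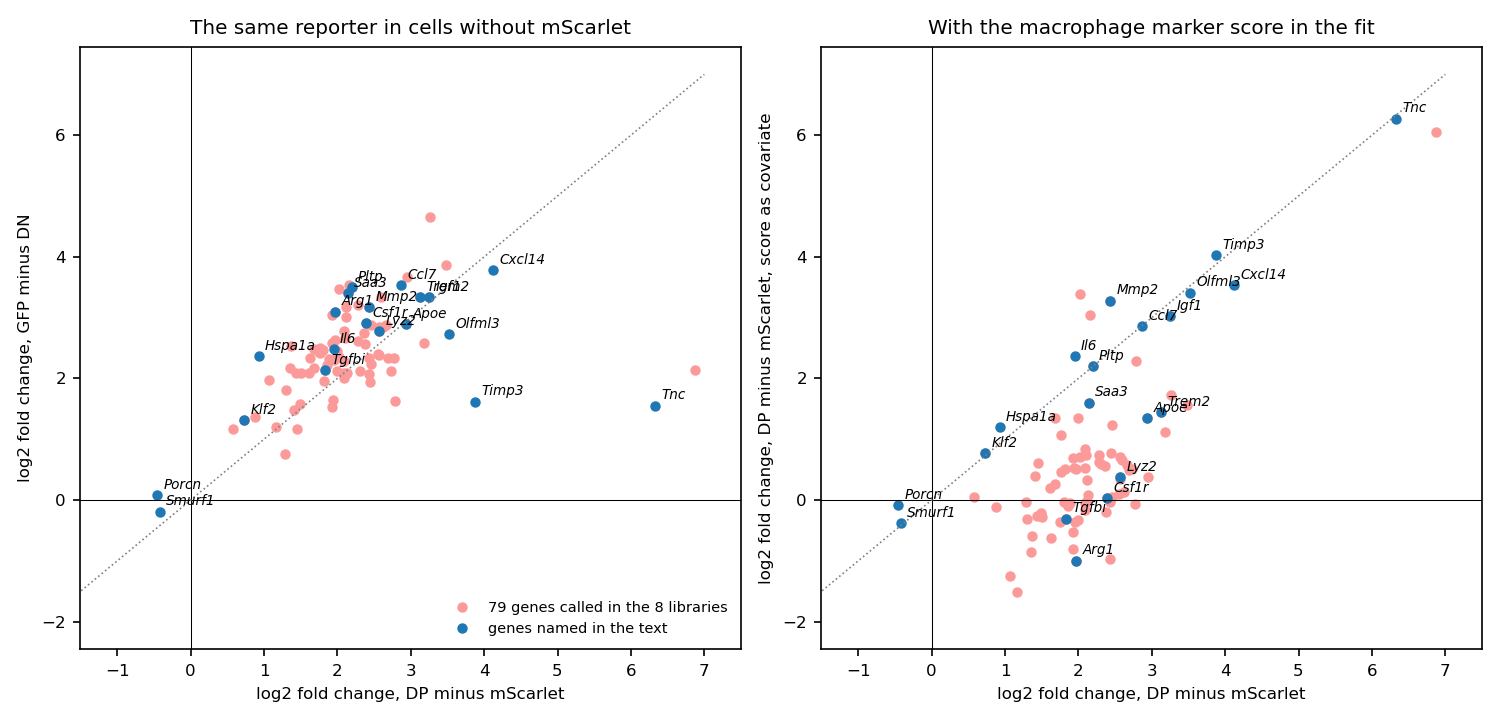
Left, log2 fold change GFP minus DN (y axis) against DP minus mScarlet (x axis) for the 79 genes called in the 8 libraries alone and for named genes; right, DP minus mScarlet with the macrophage score as a covariate (y axis) against the same without it (x axis). The dotted line marks equal values; all 79 genes lie above 0 on the left, and on the right their median is 0.39 while Pltp (2.20), Igf1 (3.02), Ccl7 (2.86) and Tnc (6.27) stay near the line.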

How the data were processed

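Bulk RNA sequencing was read from 16 libraries of 4 sorted populations. The deposited values are counts of reads per gene, whole numbers with Entrez identifiers and no normalization. The submitters' processing notes name GRCm38 (mm10), STAR and DESeq2 1.24.0 without their roles, while the read counter, the annotation and the strand setting are not given in the sources read here. Per the labels' protocols, low-input RNA was turned into full-length cDNA and amplified by PCR. The reads carry no molecular identifiers, so limits from counts cover counting error only. Each file lists 24467 genes, of which 24437 matched a RefSeq symbol (GRCm38.p6), and 30 did not. Library totals include those 30, at 0.723% to 1.93% of all counts.

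Counts were fitted with edgeR 4.0.16 in R 4.3.3 (filterByExpr by group, TMM scaling, quasi-likelihood test) over all 16 libraries with group and library number as terms, which left 9 residual degrees of freedom. Benjamini-Hochberg adjustment ran over all 15963 genes tested, with a threshold of 0.05. Alternatives used DESeq2 1.42.0, limma 3.58.1 (voom), other scalings and filters, fewer libraries, no block, and the macrophage score (mean log2(CPM + 1) over that list, pseudocount 1) as a covariate. The scripts were tested on simulated data.

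The library numbers come from the titles, and the labels do not say that a number marks 1 mouse. Over 8102 genes with at least 10 CPM, the deviations of a DP library from its group mean correlated with those of the mScarlet library of the same number at r of 0.46 to 0.74, against -0.53 to 0.30 for other numbers, and all 8 libraries correlated best with their own number. No 2 replicates agreed within sampling noise (lowest chi-square per degree of freedom 97.0 over 12 pairs).

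The text names Porcn, Wls, 6 WNT targets, the markers Apoe, Ptprc and Tnc, the 5 genes per direction with the smallest p, a mean of 5 CPM or more where higher and the same sign in all 4 numbers (gene models without a symbol passed over), and up to 4 members per list with the smallest p and at least 1 CPM. Wnt7b, Wnt7a, Wnt10a and Wnt4, the genes over 2-fold among the abundant ones and those said to be so were named outside this rule, after their values were seen. The members and the 41 gene lists (29 programmes, 12 sets of markers of other cells) were chosen with earlier results of these data known. A total of 5 list members were not matched. Genes below the filter are given as counts. Some genes that the rule names are not reported here.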

Additional observations from a re-analysis of the deposited data

Results flagged for a closer look

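In each group of 4 libraries, the highest or lowest value was set against the other 3, and it was picked out where its gap to the nearest one passed Dixon's 95% critical value as a share of the group's range. Of 266 groups tested, over the genes named in the text and the list scores, 29 were picked out (10.9%). Chance picks about 1 in 20 groups if the values follow a normal distribution, which CPM need not do. A group with a single library above 0 is always picked out. The share picked out therefore cannot be set against 1 in 20, and the genes within a library are not independent.

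In mScarlet library 4, Apoe (1343 CPM), Ccl7 (10.1), Mmp12 (77.9), Ccl2 (18.4), H2-Q6 (2.77) and Hmox1 (106) were high against the other mScarlet libraries, as was the score of matrix metalloproteinases and inhibitors (4.18). In DP library 1, Ptprc (9.29 CPM), the globin genes Hbb-bt (184) and Hba-a1 (412), Parvg (17.7), Spic (6.29) and Timd4 (15) were high, as was the dendritic cell score (1.76). In mScarlet library 1, Cel (141 CPM), Parvg (2.51), Nkd1 (0.786), Dkk3 (0.269) and Spic (0.0215) were high and Coq8b (78.9) was low.

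In DP library 2, Cel (14.6 CPM) and Notum (0.113) were high and Aurkb (7.19) was low. In mScarlet library 3, Notum (0.687 CPM), Cd209b (0.0665) and the score of RAS-ERK output genes (5.79) were high. The score of glycolysis and hypoxia genes was high in DP library 4 (8.5). Axin2 in mScarlet library 4 (0.022 CPM) and Sp5 in DP library 1 (0.0217 CPM) were picked out on 2 counts each.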

How the results depend on the processing

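The count of 0 genes called between DP and mScarlet stayed at 0 with edgeR without the replicate block (483 genes at an unadjusted p under 0.05), with RLE or upper quartile scaling, with no or a stricter low-count filter, with the macrophage score, without the GFP group and with limma voom. It was 79 in the 8 libraries alone with the block and 0 there without it, 195 with DESeq2, 1 without GFP libraries 1 and 4, and 0 to 40 when a library or a number was left out. The cause was not tested. The 79 calls became 508 with DESeq2, 262 with limma voom, 0 without the block, 132 with at least 1 CPM in 4 libraries, 259 with no filter, and 24 to 92 when a number was left out. The checks of the 8-library fit were chosen after seeing the data, as was leaving out the GFP group. For the interaction, DESeq2 called 60 genes and every other setting 0, and a fit of 2 groups alone cannot give it. The 11 calls of GFP against DN became 0 without the replicate block, 38 in those 8 libraries with it and 0 without it, 2 without GFP libraries 1 and 4, 31 with no filter, 351 with the macrophage score, 768 with DESeq2, 366 with limma voom and 0 to 59 when a library or number was left out.

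With the macrophage score as a covariate, the log2 fold change changed sign to -0.85 for Rnf43, -0.33 for Itgb2, -0.37 for Laptm5, -0.2 for Ctss, -0.3 for Tgfbi, -0.34 for H2-Ab1, -0.19 for Cd74, 0.09 for Krt19, 0.22 for Tff2, 1.12 for Cel, 0.74 for Pnliprp1, -0.49 for Slc16a3, 0.55 for Wnt4, -0.99 for Arg1 and -0.09 for Ctsc. When a library or number was left out, the log2 fold change ran from 0 to 0.32 for Wls, -0.62 to 1.62 for Nkd1, -0.4 to 0.77 for Rnf43, -0.47 to 0.04 for Tff2, -0.24 to 0.07 for Wnt7b, -0.3 to 0.01 for Wnt10a and -0.31 to 0.17 for Wnt4. Depth limits Axin2, Sp5 and Tnc, with 2, 0 and 6 counts over the 4 mScarlet libraries.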
